A study of Mus musculus with 8 samples.

Results

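Transcripts of 10 skeletal muscle sarcomere and muscle enzyme genes were followed in RNA-seq libraries of mouse knee cartilage, as a check for muscle RNA carried over at dissection. The genes were Acta1, Ckm, Myh1, Myh2, Myh4, Mylpf, Tnnt3, Tnnc2, Tnni2 and Ttn, chosen by name, and each of the 10 was found by its Ensembl identifier among the 50462 gene identifiers of the counts table. There were 8 libraries from male wild-type C57Bl/6J mice, 4 naive and 4 DMM. Naive mice had no surgery and were sampled at day 0, at 11 weeks of age. DMM mice had the left medial meniscus destabilised by cutting the medial meniscus tibial ligament at 11 weeks, and were sampled at day 42, at 17 weeks of age. Neither group carried a transgene or an engineered allele, and because sham surgery was not analysed here, effects of the operation and of 6 weeks of ageing cannot be told apart. Within each group, libraries are named by their replicate number (naive 1 to naive 4, DMM 1 to DMM 4).

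Sarcomeres are the repeating contractile units of striated muscle, in which myosin thick filaments pull on actin thin filaments, titin holds the thick filament in place, and the troponin complex makes contraction depend on calcium. Adult fast fibres use the myosin heavy chains Myh4 (type IIb), Myh1 (type IIx) and Myh2 (type IIa) with fast forms of the light chains and troponins, whereas slow fibres use Myh7 and slow troponins. Articular cartilage has no muscle fibres, but the knee is surrounded by muscle, tendon and ligament that lie close to the tissue when it is excised.

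The labels give the tissue as cartilage and the cell type as chondrocyte. Total estimated counts lay between 12479443 and 16548002 per library. The 10 chondrocyte genes together held 4783 to 9031 CPM (counts scaled to a library total of 1000000) in naive and 8076 to 12220 CPM in DMM libraries, with Prg4, the lubricant of the cartilage surface, as the most abundant. Bone marrow transcripts were also abundant, as 8 neutrophil lineage genes held 8693 to 12190 CPM in naive and 4088 to 8603 CPM in DMM libraries, and 7 erythroid genes held 10680 to 17930 and 5909 to 12510 CPM. Osteoblast and osteocyte genes (8 genes) held 1210 to 1822 CPM in naive and 2937 to 5403 CPM in DMM libraries. In tissue of several cell types, fewer cells of a type and less RNA per cell cannot be told apart. DMM 1 and naive 3 stood apart from their groups in muscle transcripts, and results are therefore given with and without them.

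The myosin heavy chain genes lie beside each other on chromosome 11 and have closely related sequences, which bears on how reads were divided between them. Of the 31-base words of each gene's annotated transcripts, 32.7% of Myh1, 27.3% of Myh2 and 23.4% of Myh4 words also occurred in one of the other two. Counted against all other genes, the shares were 37.9% of Myh1, 32.8% of Myh2 and 30.4% of Myh4 words. Myh8, the perinatal myosin, was among the genes sharing most words with each of them, so its counts depend on the same division. A stretch of the coding sequence is shown here because its middle part, a run of 140 bases, was identical in all 3 genes, so that a read within it could not be placed by sequence. The stretch covers bases 1519 to 1718 of each coding sequence (GENCODE vM21, GRCm38), and capitals mark the 17 positions in the flanks at which the 3 genes differ.
Myh4: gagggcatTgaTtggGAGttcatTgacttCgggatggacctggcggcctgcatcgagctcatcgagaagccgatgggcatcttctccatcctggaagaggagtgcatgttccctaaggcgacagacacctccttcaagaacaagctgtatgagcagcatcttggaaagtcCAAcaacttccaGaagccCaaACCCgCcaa
Myh1: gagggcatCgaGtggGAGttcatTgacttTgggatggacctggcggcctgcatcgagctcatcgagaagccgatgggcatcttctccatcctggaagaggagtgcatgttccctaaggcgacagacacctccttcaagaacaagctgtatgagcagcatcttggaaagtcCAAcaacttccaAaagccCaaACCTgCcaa
Myh2: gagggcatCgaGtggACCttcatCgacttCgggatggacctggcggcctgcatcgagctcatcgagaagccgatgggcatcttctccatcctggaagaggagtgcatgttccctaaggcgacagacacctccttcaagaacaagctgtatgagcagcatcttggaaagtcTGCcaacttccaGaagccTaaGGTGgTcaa
Among the other members, 4.11% of Acta1 words were shared with other genes, mainly Actb, and 0.48% of Ckm words. No word of Mylpf, Tnnt3, Tnnc2, Tnni2 or Ttn was shared in the same orientation, so their counts did not rest on a division between related genes in that orientation. Words shared with genes on the opposite strand were not searched.

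In GRCm38 (GENCODE vM21) the members lie on 4 chromosomes. Myh2 (chr11:67171027-67197517), Myh1 (chr11:67200052-67224575) and Myh4 (chr11:67238029-67260446) follow each other on the plus strand. Tnni2 (chr7:142441808-142444410) and Tnnt3 (chr7:142498836-142516009) are likewise neighbours on the plus strand of chromosome 7, which also holds Ckm (chr7:19404776-19422841, plus) and Mylpf (chr7:127208890-127214298, plus). Ttn (chr2:76703980-76982547) and Tnnc2 (chr2:164777161-164779967) are on the minus strand of chromosome 2, and Acta1 (chr8:123891769-123894751) is on the minus strand of chromosome 8. For 7 members the annotation places another gene on the opposite strand: Gm20388 at Acta1, A930016O22Rik at Ckm, Myhas at Myh1, 9430073C21Rik at Myh2, Prr33 at Tnnt3, Ube2c at Tnnc2 and Gm13938 at Ttn. Whether counting used strand was not stated, so reads of these overlapping pairs may not be told apart.

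Muscle transcripts were scarce in all 8 libraries and were concentrated in one. The 10 genes together held 276 CPM in DMM 1, compared with 15.4 to 77.5 CPM in the other 7 libraries, of which naive 3 was the highest. In naive mice the sums were 21.3, 15.4, 77.5 and 32.1 CPM (naive 1 to naive 4). In DMM mice they were 276, 39.9, 24.5 and 24.6 CPM (DMM 1 to DMM 4). DMM 2, DMM 3 and DMM 4 therefore lay within the range of the naive libraries. On median-of-ratios normalised counts, the mean sum in DMM was 2.29 times that in naive libraries, and 0.744 times without DMM 1, so that the direction was set by this library. Without both DMM 1 and naive 3 the ratio was 1.16. Ttn, the longest transcript, gave 44.2% to 61.7% of the sum in every library. The sums also include Tnni2 and Mylpf, which did not follow the other members (described below). These 2 genes were at 63.9 and 39.9 of 259 normalised counts in naive 2, and at 100.3 and 31.5 of 3706 in DMM 1. Low sums therefore rest more on them, and a sum without them was not made.

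**Figure D1:**
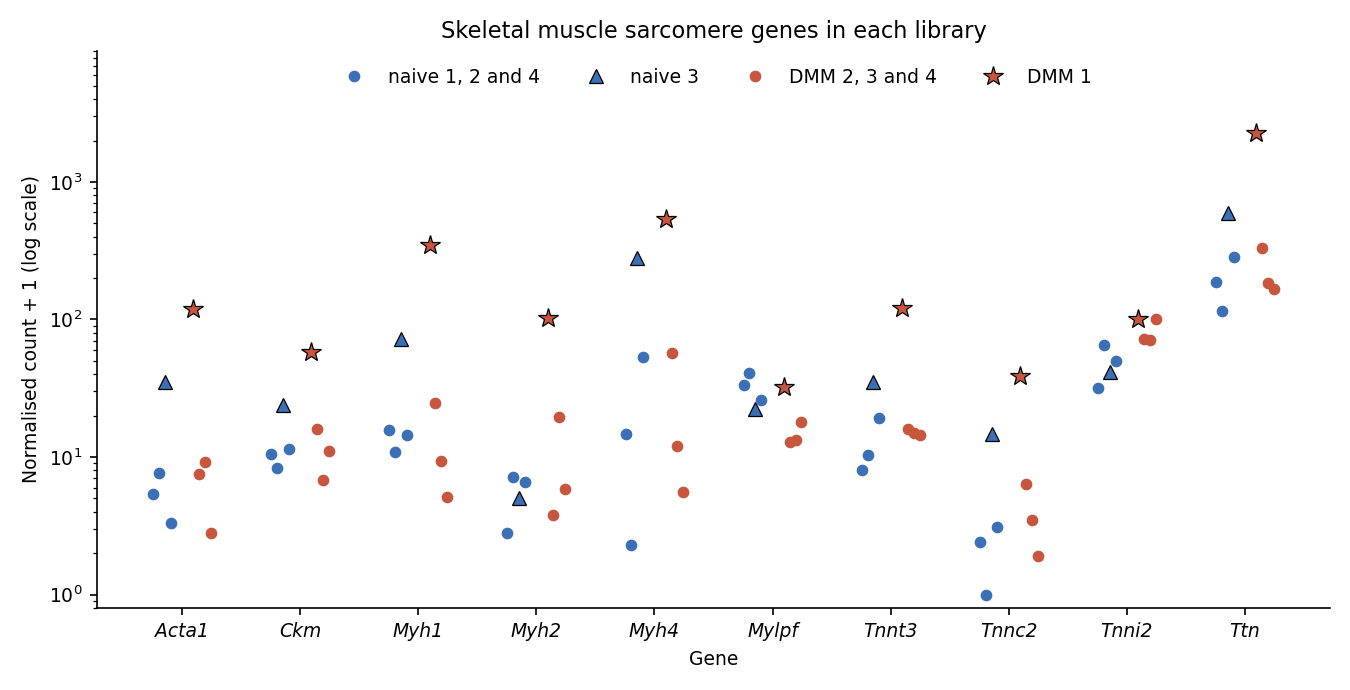
Normalised counts (plus 1, log scale) of the 10 genes, with each point standing for 1 library of 1 mouse, naive in blue and DMM in red. The star, DMM 1, was the highest point for 9 genes, and the triangle, naive 3, was the highest naive point for 7 genes.

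DMM 1 was the highest of the 8 libraries for 9 of the 10 members, whereas it was highest for 13.7% of the 20813 genes whose mean over all libraries was 5 normalised counts or more. It was at least 3 times the median of the other 7 libraries for 8 members, compared with 1.26% of the same genes. The exceptions were Mylpf and Tnni2. Naive 3 was the highest naive library for 7 members, the exceptions being Myh2, Mylpf and Tnni2.

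The fast myosin heavy chains, the motor proteins of fast fibres, differed widely between libraries. Normalised counts of Myh4 were 13.8, 1.3, 277 and 52.5 in naive 1 to naive 4 and 540, 56.5, 11.0 and 4.6 in DMM 1 to DMM 4. DMM 1 was 39.2 times the median of the other 7 libraries, naive 3 was second, and the remaining 3 libraries of each group overlapped. Myh1 was at 14.8, 9.9, 71.3 and 13.5 in naive and at 349, 23.9, 8.4 and 4.1 in DMM libraries. Its order was the same at the top, with DMM 1 at 25.9 times the median of the others and naive 3 next. Myh2 was at 1.8, 6.1, 4.0 and 5.6 in naive libraries and at 101, 2.8, 18.4 and 4.9 in DMM libraries. Here DMM 3 was second and naive 3 lay within the other naive libraries, so the type IIa myosin did not follow the other 2 in naive 3.

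The mix of the 3 myosins thus differed between the libraries with the most muscle counts. Myh2 made up 10.2% of the 1194 counts of the 3 myosins in DMM 1 (95% Wilson interval 8.63 to 12.1) and 1.22% of 329 in naive 3 (0.474 to 3.08). Myh4 made up 54.5% in DMM 1 (51.7 to 57.3) and 78.7% in naive 3 (74.0 to 82.8), and in both it was the most abundant of the 3. In DMM 3, the library with the second highest Myh2, Myh2 was 47.8% of only 46 counts (34.1 to 61.9). These intervals cover counting error only, and they do not cover the division of reads in the stretches that the genes share. Naive 2 and DMM 4 held 13 and 15 counts of the 3 myosins, too few to order them. Relative to naive 3, DMM 1 held 23.6 times as much Myh2 (95% exact interval 8.998 to 88.1, counting error only), 4.87 times as much Myh1 (3.76 to 6.40) and 1.95 times as much Myh4 (1.68 to 2.26).

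**Figure D2:**
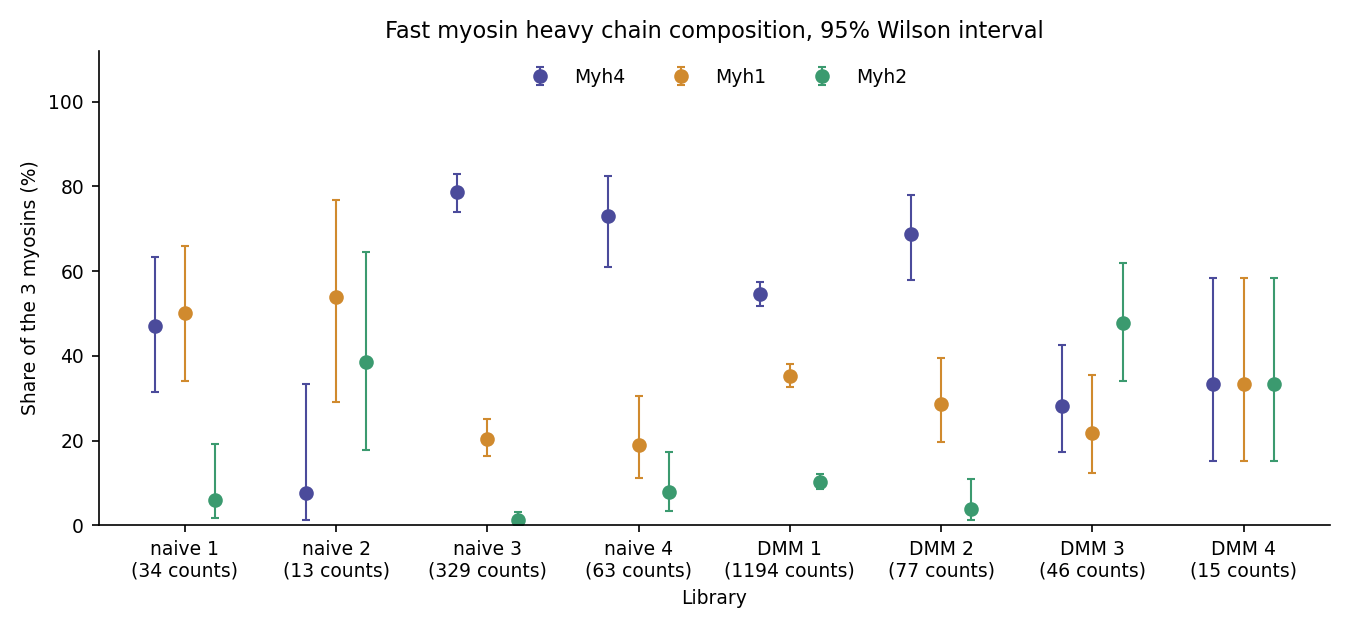
Share of each of the 3 fast myosin heavy chains in their summed counts, by library (%), with 95% Wilson intervals that cover counting error only and the summed counts under each library. Myh4 was the largest share in naive 3 and DMM 1, and Myh2 was 1.22% in naive 3 against 10.2% in DMM 1.

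Actin and titin, the thin filament and the elastic filament of the sarcomere, followed the same pattern. Acta1, skeletal muscle actin, was at 4.4, 6.7, 34.3 and 2.3 normalised counts in naive 1 to naive 4 and at 118, 6.5, 8.2 and 1.8 in DMM 1 to DMM 4. Apart from DMM 1 and naive 3, all libraries lay below 10 and the groups overlapped. Ttn was at 187, 114, 595 and 284 in naive and at 2252, 328, 184 and 166 in DMM libraries. DMM 1 was 12.02 times the median of the others, and DMM 3 and DMM 4 lay below 3 of the naive libraries. Ckm, the creatine kinase that regenerates ATP in muscle, was at 9.6, 7.3, 22.8 and 10.5 in naive and at 56.9, 15.0, 5.8 and 10.0 in DMM libraries. Its excess in DMM 1 was smaller, at 5.69 times the median of the others, and both groups otherwise overlapped.

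The fast troponins divided into 2 patterns. Tnnt3, the subunit that binds tropomyosin, was at 7.0, 9.3, 34.2 and 18.1 normalised counts in naive and at 119, 15.0, 14.0 and 13.5 in DMM libraries. Tnnc2, the subunit that binds calcium, was at 1.4, 0.0, 13.7 and 2.1 in naive and at 37.9, 5.4, 2.5 and 0.9 in DMM libraries. The 0 in naive 2 allows up to 3 counts, or 0.238 CPM. Both subunits were highest in DMM 1 and second highest in naive 3, with the other libraries overlapping. Tnni2, the inhibitory subunit, was instead at 30.8, 63.9, 40.7 and 48.8 in naive and at 100.3, 70.9, 70.0 and 99.3 in DMM libraries. For Tnni2 alone among the 10 members, every DMM library lay above every naive library, which was the case for 22.6% of the 17364 genes with an adjusted P value. DMM 1 and DMM 4 were nearly level for Tnni2, whereas Tnnc2 in DMM 4 was at 0.9, the lowest value of the DMM group.

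Mylpf, the regulatory light chain of fast myosin, also stood outside the pattern. Its normalised counts were 32.5, 39.9, 21.4 and 24.9 in naive and 31.5, 11.8, 12.3 and 17.1 in DMM libraries. The highest library was naive 2, which was the lowest for Myh4, Tnnc2 and Ttn, and the groups overlapped only through DMM 1. As a description over the 8 libraries, the correlation of log2(normalised count + 1) with the mean of the other 9 members was 0.09 for Mylpf and 0.22 for Tnni2. It was 0.66 for Myh2, between 0.84 and 0.96 for Myh4, Acta1, Ckm, Tnnc2, Myh1 and Tnnt3, and 0.99 for Ttn. These 8 points share the 2 high libraries.

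Per kilobase of the longest annotated transcript, Tnni2 was the most abundant member in DMM 1 (131 normalised counts per kb), followed by Tnnt3 (111), Myh4 (89.8), Acta1 (81.5), Myh1 (57.4), Tnnc2 (54.1), Mylpf (41.1), Ttn (21.1), Ckm (20.8) and Myh2 (16.6). These are values of 1 library, and neighbours in this order were not tested against each other. The median of the 8 libraries gave a different order, with Tnni2 (87.1 per kb) and Mylpf (30.3 per kb) far above the rest, which lay between 0.859 (Myh2) and 13.5 (Tnnt3) per kb. The 2 genes that did not follow the others were thus the most abundant of the 10 per length by this median. The ranges over libraries overlapped for each pair of neighbours in this order. Per kilobase of coding sequence, Tnni2 was again first in DMM 1 (176), with Tnnt3 second (146) and Acta1 (104) ahead of Myh4 (92.8).

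Windows upstream of the RefSeq start were available for 8 members (GRCm38.p6). Those of Acta1 and Myh4, which were high in DMM 1, are shown beside that of Mylpf, which was not. Each is the 250 bases before the RefSeq start of the gene: Acta1 at chr8:123894776-123895025 (minus), Myh4 at chr11:67237562-67237811 (plus) and Mylpf at chr7:127211358-127211607 (plus). The RefSeq start differs from the end of the GENCODE gene span given above. The Mylpf window lies inside that span, as does the Ckm window (chr7:19410844-19411093), and the Myh1 and Tnnc2 windows overlap theirs in part. Matches in these windows may therefore not describe the start of every transcript. Capitals mark matches, searched on both strands, to the E-box CANNTG bound by myogenic factors, to TATAAA, to the MEF2 site and to the CArG box bound by serum response factor.
Acta1: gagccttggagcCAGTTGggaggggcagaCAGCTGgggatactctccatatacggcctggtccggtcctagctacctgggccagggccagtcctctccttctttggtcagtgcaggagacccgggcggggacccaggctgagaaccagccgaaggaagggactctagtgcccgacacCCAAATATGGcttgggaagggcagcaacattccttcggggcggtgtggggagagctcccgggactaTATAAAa
Myh4: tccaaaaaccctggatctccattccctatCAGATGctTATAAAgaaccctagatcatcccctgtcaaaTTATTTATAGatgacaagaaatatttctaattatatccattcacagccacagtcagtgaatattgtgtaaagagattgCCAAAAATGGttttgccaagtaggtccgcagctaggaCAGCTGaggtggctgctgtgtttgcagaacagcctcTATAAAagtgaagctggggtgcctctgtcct
Mylpf: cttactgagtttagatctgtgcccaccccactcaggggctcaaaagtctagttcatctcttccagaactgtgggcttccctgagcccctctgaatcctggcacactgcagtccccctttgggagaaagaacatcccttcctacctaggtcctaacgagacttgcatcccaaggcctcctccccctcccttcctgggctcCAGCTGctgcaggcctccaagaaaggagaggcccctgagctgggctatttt
The Acta1 window held 2 E-boxes, 1 TATAAA and 1 CArG box. The Myh4 window held 2 E-boxes, 3 matches to TATAAA, of which 1 overlaps the MEF2 site, 1 MEF2 site and 1 CArG box. The Mylpf window held 1 E-box and no match to the other 3 motifs. Of the windows not shown, Myh2 had no match to any motif, Ckm had 1 E-box only and Tnnc2 had 2 E-boxes only. For these genes DMM 1 was 20.7, 5.69 and 18.3 times the median of the other 7 libraries, so Ckm had the same matches as Mylpf. Myh1 held 2 matches to TATAAA and 1 MEF2 site, and Ttn held 1 E-box and 1 MEF2 site. Among 32851 promoter windows of this length, 66.2% held the E-box, 12.4% TATAAA, 2.9% the MEF2 site and 1.5% the CArG box. These matches describe letters in the window and were not tested as binding sites.

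To ask whether muscle transcripts differed between naive and DMM mice, all genes were fitted with DESeq2 (Wald test, Benjamini-Hochberg adjustment), with calls set at an adjusted P of at most 0.05 and a change of at least 1.5-fold. Of the 10 members, 2 were called, Tnni2 and Myh2, both higher in DMM. Among all genes, 13.9% of the 17364 with an adjusted P were called, 7.88% as higher and 6.06% as lower in DMM. Scaling by total counts shifted log2 fold changes upwards (median -0.01 to 0.14 over genes averaging at least 10 normalised counts) and raised the share of calls higher in DMM from 56.5% to 80.6%, with the same 2 members called. An adjusted P was given to 4 members only. The same 2 members had an unadjusted P under 0.05, against 17.6% of 34991 genes. The median log2 fold change of the 10 members was 1.28, compared with -0.02 over the genes tested, and it was -0.52 without DMM 1 and 0.26 without DMM 1 and naive 3.

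Tnni2 rose from 46.0 ± 14.0 to 85.1 ± 17.0 normalised counts (SD, n = 4), a log2 fold change of 0.91 ± 0.27 (SE, adjusted P = 0.00684, DESeq2). edgeR's quasi-likelihood test and limma-voom also called it (adjusted P = 0.0258 and 0.0224). The change was of like size without DMM 1 (0.81, adjusted P = 0.0511, DESeq2), without naive 1 (0.75, adjusted P = 0.0544) and without DMM 1 and naive 3 (0.76, adjusted P = 0.155), but the call was lost in each case. Without DMM 1, Tnni2 averaged 80.1 ± 16.6 in DMM libraries (SD, n = 3).

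Myh2 averaged 4.35 ± 1.94 normalised counts in the naive group and 31.8 ± 46.7 in the DMM group (SD, n = 4), a log2 fold change of 2.82 ± 0.92 (SE, adjusted P = 0.0136, DESeq2). The size of the change rested mainly on DMM 1, and the call was lost without it. Without DMM 1 the DMM mean was 8.70 ± 8.46 (SD, n = 3), the log2 fold change was 0.96 ± 0.88 (SE), and DESeq2 gave an unadjusted P of 0.278 and no adjusted P. The call was also lost without naive 1 (2.53, adjusted P = 0.0560) and without DMM 3 (3.01), where DESeq2 gave neither an unadjusted nor an adjusted P. The gene did not pass the count filter of edgeR and limma-voom.

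For Acta1, Myh1, Myh4, Tnnt3 and Ttn, DESeq2 withheld the P value because 1 library had too large an influence on the fit (Cook's distance above 10.9). That library was DMM 1 for all 5 genes. Among the 20813 genes with a mean of 5 or more, only 17 genes (0.0817%) lost their P value in this way, and these 5 were among them. With the filter switched off, their log2 fold changes of 1.5 ± 1.37 (Acta1), 1.81 ± 1.37 (Myh1), 0.83 ± 1.66 (Myh4), 1.24 ± 0.73 (Tnnt3) and 1.31 ± 0.98 (Ttn) had adjusted P values between 0.226 and 0.785 (SE, DESeq2). Tnnc2 (1.38 ± 1.16) had no adjusted P because of its low mean. Ckm (0.84 ± 0.69, adjusted P = 0.424) and Mylpf (-0.69 ± 0.42, adjusted P = 0.239) did not pass the threshold.

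Leaving out DMM 1 turned the sign of 7 members. Their log2 fold changes then were -1.11 ± 0.96 (Acta1), -0.28 ± 0.64 (Ckm), -1.19 ± 0.77 (Myh1), -1.85 ± 1.57 (Myh4), -0.28 ± 0.60 (Tnnt3), -0.65 ± 1.27 (Tnnc2) and -0.39 ± 0.63 (Ttn), and none of the 10 members was called, with 2 at an unadjusted P under 0.05 (DESeq2). Those were Tnni2 and Mylpf, and the latter had a log2 fold change of -1.10 ± 0.43 (adjusted P = 0.0590). In this fit only 5 members had an adjusted P, and 1863 of the 16544 genes with one were called. With naive 3 also left out, the 7 values lay between -0.09 (Myh1) and 1.06 (Tnnc2). Mylpf was then at -1.23 ± 0.49 (SE, adjusted P = 0.0821, DESeq2).

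**Figure D3:**
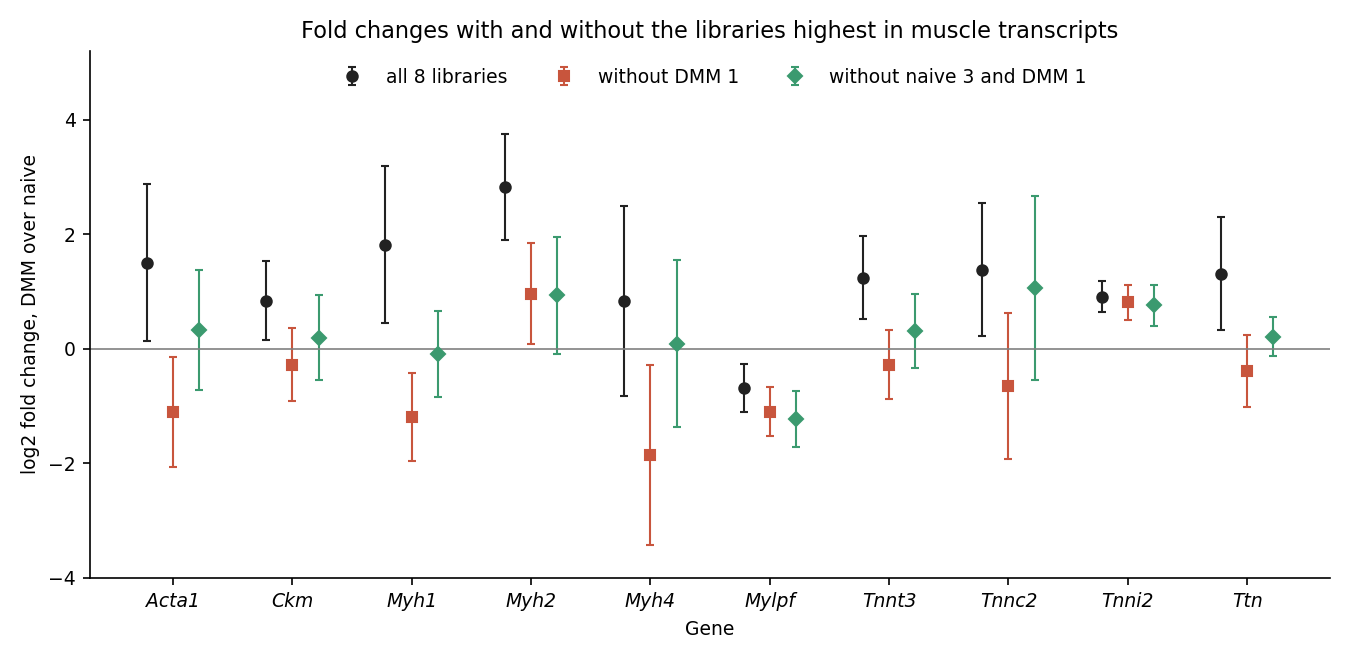
DESeq2 log2 fold change of DMM over naive for each gene, with the SE as the error bar, in all 8 libraries (black), without DMM 1 (red) and without naive 3 and DMM 1 (green). The red values of 7 genes lie below 0 and their black values above it, whereas Tnni2 stays between 0.76 and 0.91.

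Other skeletal muscle genes were examined in 7 lists of 70 genes. DESeq2 gave 32 of them an adjusted P and called 2, of which Tnnc1 was lower in DMM, against 13.9% called of all 17364 genes with an adjusted P. An unadjusted P under 0.05 was found for 8 of the 70, against 17.6% of 34991 genes. The median log2 fold change was 0.21. Of the 46 genes with a mean normalised count of 5 or more, DMM 1 was highest for 18 and at least 3 times the median of the others for 6 (Atp2a1, Casq1, Neb, Mybpc1, Xirp2 and Trdn, named after their values were seen). Over all 20813 genes with such a mean, the shares were 13.7% and 1.26%. Mybpc1 was nevertheless not highest in DMM 1 (40.6 normalised counts), since naive 1 (41.3) and naive 3 (54.6) lay above it.

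Other fast fibre genes (10 genes) summed to 46.8 CPM in DMM 1 and 14.6 to 29.7 CPM in the other libraries, and none was called, nor had any an unadjusted P under 0.05. Atp2a1, the calcium pump of the fast fibre reticulum, was at 21.9, 6.9, 89.9 and 34.9 normalised counts in naive and at 183, 41.8, 16.9 and 10.4 in DMM libraries. DMM 1 was again highest and naive 3 second. Pygm, the muscle glycogen phosphorylase, ranged from 81.2 to 141 and Eno3, muscle enolase, from 43.9 to 84.9, and both were highest in DMM 2.

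Sarcomere scaffold genes (15 genes) had no call. Neb, which spans the thin filament, was at 91.4, 35.9, 121 and 52.2 in naive and at 309, 54.8, 50.1 and 56.6 in DMM libraries, with DMM 1 at 5.63 times the median of the others. Myom1, an M-band protein, was instead highest in naive 1 and ranged from 464 to 708 (log2 fold change -0.33 ± 0.12, adjusted P = 0.0311, DESeq2), under the 1.5-fold limit. Cmya5, a Z-disc associated protein, ranged from 203 to 515. Among excitation contraction genes (12 genes, none called, 3 with an unadjusted P under 0.05), Ryr1, the calcium release channel, was at 109 in DMM 1 and at 34.7 to 77.3 elsewhere. Srl (49.2 to 85.4) was also highest in DMM 1, as was Jph1 (29.3 to 76.4), a protein of the junction between surface membrane and reticulum, for which every DMM library lay above every naive library (log2 fold change 0.65 ± 0.27, adjusted P = 0.0619).

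**Figure D4:**
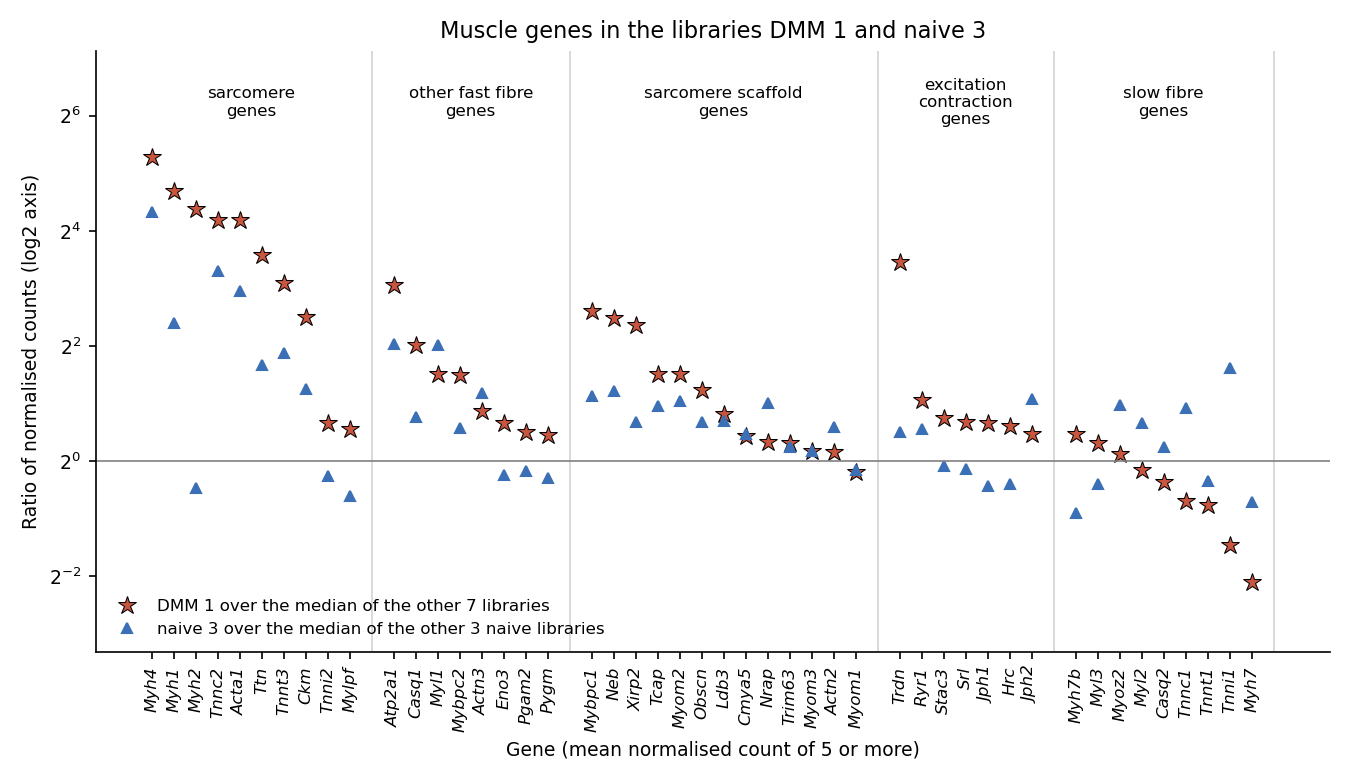
Ratio of normalised counts in DMM 1 to the median of the other 7 libraries (stars) and in naive 3 to the median of the other 3 naive libraries (triangles), on a log2 axis, for genes with a mean of 5 or more. Stars reach 39.2 for Myh4, lie below 2 for Tnni2 and Mylpf, and lie near or below 1 for most slow fibre genes.

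Slow fibre genes did not follow DMM 1. DMM 1 was the highest library for none of the 9 genes, and their sum was 11.2 CPM in DMM 1 against 9.66 to 25.5 CPM elsewhere. Tnnc1, the slow and cardiac calcium-binding troponin, fell from 149 ± 65.3 to 66.6 ± 43.6 normalised counts (SD, n = 4), a log2 fold change of -1.16 ± 0.42 (SE, adjusted P = 0.0304, DESeq2). The call was lost with edgeR and without naive 3, naive 4, DMM 1, DMM 2 or DMM 3. Tnnt1, the slow tropomyosin-binding subunit, ranged from 37.5 to 88.5, with its lowest value in DMM 1. Myh7, the slow myosin heavy chain, was at 3.4 in DMM 1 and at 4.7 to 22.1 in the other libraries.

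Genes of muscle formation gave no like pattern. Embryonic and regeneration genes (6 genes) had no call and no gene with an unadjusted P under 0.05, and were led by Myl4 (96.4 to 299), an atrial and embryonic light chain, followed by Myh8 (5.0 to 21.1), the perinatal myosin, and Chrng (0.0 to 7.5), the fetal acetylcholine receptor subunit. Among 8 myogenic regulators, Myod1 and Myf5 were at 0 in every library, and Pax3 had a mean of 12.7 normalised counts. Mef2c, a transcription factor of muscle and of hypertrophic chondrocytes, changed by 0.54 ± 0.14 (log2 fold change and SE, adjusted P = 0.00135, DESeq2), under the fold limit. Muscle energy genes (10 genes) had no call and 1 gene with an unadjusted P under 0.05, with Pfkm (181 to 342), Phka1 (166 to 315) and Phkg1 (96.4 to 182) as the most abundant, none of them highest in DMM 1.

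Other tissues close to the joint were read in the same libraries. Of 6 cardiac sarcomere genes, Tnnt2 was called as lower in DMM (-1.44 ± 0.47, adjusted P = 0.0131, DESeq2), with 73.5 normalised counts in naive 3 and 10.9 to 33.4 elsewhere. Mybpc3 ranged from 9.1 to 16.2, Tnni3 from 4.4 to 20.4, and Myl7 was at 0 in all libraries. Of 9 smooth muscle genes, Acta2 (1.55 ± 0.49, adjusted P = 0.0110) and Myh11 (1.26 ± 0.30, adjusted P = 0.000499) were called as higher in DMM. Both were highest in DMM 3 (731 and 1167), where the sarcomere genes were low, and Smtn ranged from 1055 to 1614. Of 6 tendon and ligament genes, Kera, Tnmd and Scx were called as higher, and Kera was at 78.8 in DMM 1 and 104 in DMM 3 against 5.3 to 10.7 elsewhere. The 6 genes summed to 329 CPM in DMM 1 and 439 CPM in DMM 3, and to 165 to 347 CPM in the other libraries, with Thbs4 as the most abundant. Tnmd was likewise highest in DMM 3 (154) and DMM 1 (69.7) and at 2.7 to 33.4 elsewhere, and Scx was at 113 and 86.2 against 20.3 to 76.3. The sums rest mainly on Thbs4, which was at 3620 in DMM 1 and 4124 in naive 4. Of the 10 sarcomere genes, DMM 3 was second highest for Myh2, while its summed level (24.5 CPM) lay within the naive range. The part of tendon tissue in the result was not tested.

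Adipocyte genes (7 genes, led by Fabp4) were highest in DMM 2, at 737 CPM, and were at 394 CPM in DMM 1. Neuron and Schwann genes (6 genes, led by Mbp) lay between 44.5 and 61.8 CPM and were at 45.2 CPM in DMM 1. Endothelial genes (6 genes, led by Pecam1) were at 369 CPM in DMM 1 and at 203 to 383 CPM elsewhere. Neutrophil lineage genes, led by S100a9, were at their lowest sum in DMM 1 (4088 CPM), and erythroid genes, led by Hba-a2, were at 6311 CPM there. Chondrocyte genes were at 8076 CPM in DMM 1, the lowest of the DMM group, and osteoblast and osteocyte genes, led by Ibsp, were at 2937 CPM, also the lowest of that group. DMM 1 was the highest library for none of these 7 lists.

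**Figure D5:**
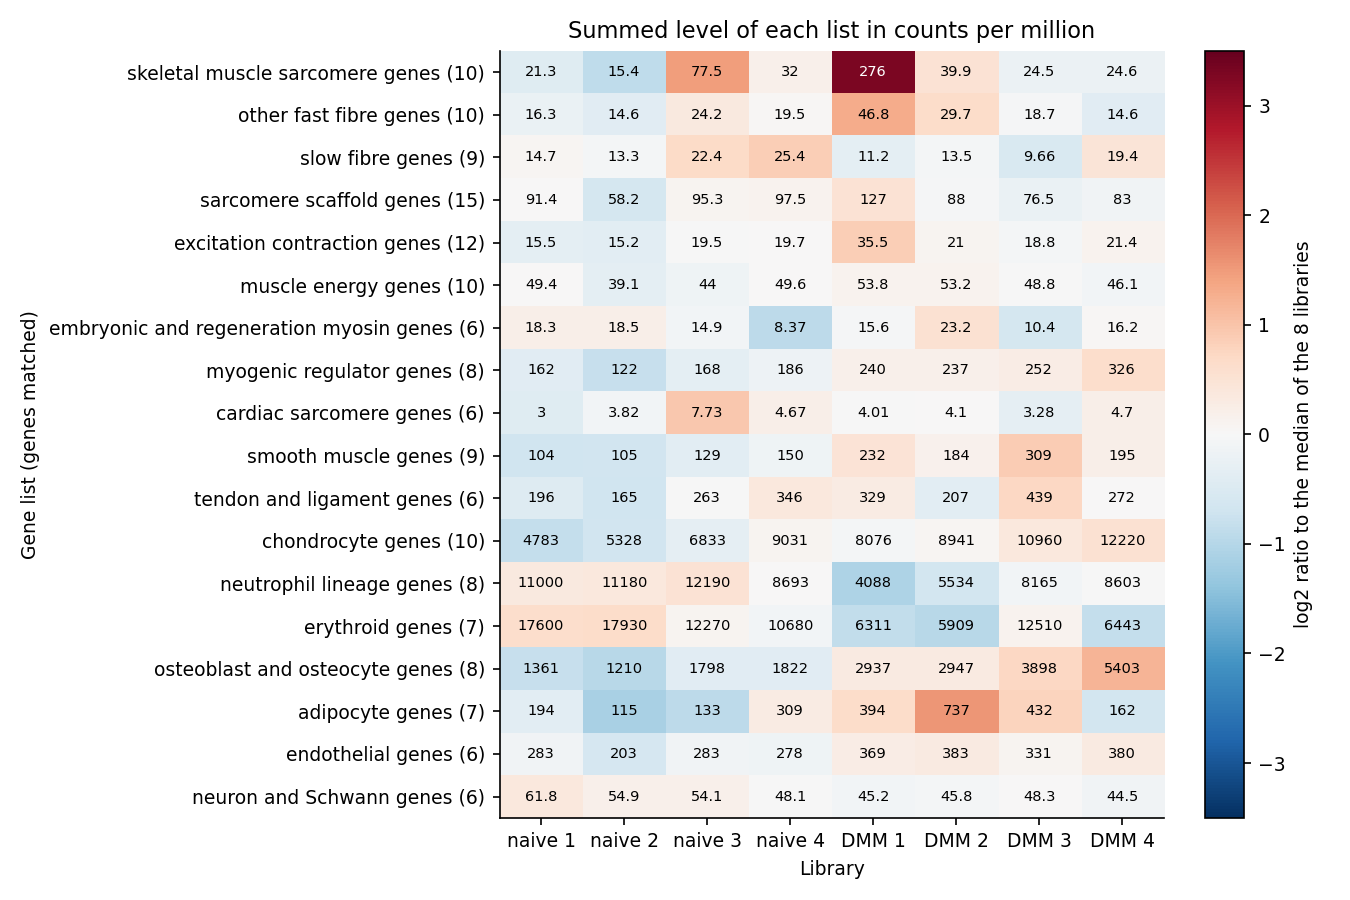
Summed level of each gene list in each library, in CPM (numbers), coloured by the log2 ratio to the median of the 8 libraries. The 10 sarcomere genes reach 276 CPM in DMM 1, and of the wider muscle lists the other fast fibre genes (46.8 CPM) and excitation contraction genes (35.5 CPM) are also highest there, as are, by less, the scaffold (127 CPM) and energy genes (53.8 CPM).

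Outside the muscle lists, the genes with the pattern most like the mean of the members were Gm3052, Zgpat, Dnhd1, Fance, Pusl1, Ccdc138, Bbc3 and Ccdc163. Their Pearson correlation over the 8 libraries lay between 0.886 and 0.913, out of 13199 genes whose mean was 50 normalised counts or more. Their range was narrow, since Zgpat, a transcriptional repressor, was at 658 in DMM 1 and at 369 to 520 elsewhere, and Gm3052 was at 226 and 129 to 164. None of the 8 was called. They were picked as the highest correlations among these 13199 genes over only 8 libraries, and a link to muscle RNA was not tested.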

How the data were processed

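Medial knee cartilage caps of 4 naive and 4 DMM mice were profiled by RNA-seq, 1 library per sample. The deposited table holds estimated counts per gene, which the authors made with Trimmomatic, Kallisto and tximport. As a result 39.0% of values are not whole, and they were rounded before testing. The methods of the study name GRCm38, while the submitters' processing notes name GRCh38, a human build, and the strand setting is not given in the sources used here. The labels and the methods also name different library kits. Total counts were 12479443 to 16548002 per library, and no 2 libraries of a group agreed within counting noise (chi-square per degree of freedom of at least 8.10).

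Ensembl identifiers were matched to symbols for 153 of 154 listed genes. The members and lists were chosen with earlier results of these data known. All genes were fitted with DESeq2 1.42.0 in R 4.3.3 (median-of-ratios size factors, unshrunken, default independent and Cook's filters, no covariate), the test used in the study. Normalised counts are estimated counts divided by the size factor. Alternatives were edgeR 4.0.16, limma-voom (limma 3.58.1), TMM or total-count size factors, other filters (among them 10 counts in 4 libraries), other fold limits, the replicate block and leaving out libraries. Leaving out naive 3 and DMM 1 together, and leaving out Ttn from the sums, were added after the data were seen. The fits were tested on simulated data. P values measure the spread between these libraries, each labelled as a separate sample.

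Named genes were the 10 members, the 3 most abundant and up to 4 called genes of each muscle list, the 8 genes outside the muscle lists most correlated with the mean of the members (log2 with a pseudocount of 1), and the most abundant gene of the other lists. Other genes were named after their values were seen. The result of 1 listed gene is not reported here. Sequence features used GENCODE vM21 and RefSeq, and no entry was matched for Tnnt3 and Tnni2 among promoters. Intervals used SciPy 1.17.1.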

Additional observations from a re-analysis of the deposited data

Results flagged for a closer look

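Dixon's criterion marks a library far outside the other 3 of its group, and for normally distributed values chance gives about 5% of groups. It was met in 11 of 22 groups of 4 libraries examined (10 genes and their sum, in each group). Whether these values were normally distributed was not tested, so 5% is not a measured rate for them. In DMM mice the marked library was DMM 1 in all 8 such cases. It held 118 normalised counts of Acta1 against 1.82 to 8.24 in the other 3, 349 of Myh1 against 4.10 to 23.9, 101 of Myh2 against 2.82 to 18.4, and 540 of Myh4 against 4.59 to 56.5. It held 119 of Tnnt3 against 13.5 to 15.1, 37.9 of Tnnc2 against 0.903 to 5.38, and 2252 of Ttn against 166 to 328. The sum of the 10 genes was 276 CPM against 24.5 to 39.9. In naive mice the library was naive 3 in all 3 cases, with 34.3 of Acta1 against 2.27 to 6.66, 71.3 of Myh1 against 9.90 to 14.8, and 13.7 of Tnnc2 against 0.00 to 2.07. The genes share the libraries, so these cases are not independent of each other.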

How the results depend on the processing

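The count of 2 called members fell to 1 with edgeR, with limma-voom and with genes of at least 10 counts in 4 libraries, in each case Tnni2 alone, and to 0 against a 1.5-fold null and without naive 3 and DMM 1. It was 0 to 2 when single libraries were left out, with 0 without DMM 1 or without naive 1 and 1 without DMM 3. Calls over all genes also fell, from 2422 of 17364 tested to 94 of 20072 against the 1.5-fold null. They were 1626 of 15461 without naive 3 and DMM 1. Without DMM 1 alone they were 1863 of 16544, and without naive 1 they were 1855 of 17200. The replicate numbers did not pair the libraries (correlations of same-numbered deviations 0.01, 0.08, -0.17 and 0.10 over 18419 genes), and with the replicate block 1 member was called, Tnni2, while Myh2 lost its call (log2 fold change 1.46, unadjusted P = 0.121, no adjusted P, DESeq2). The 2 calls among the wider muscle genes became 1 with edgeR, limma-voom and without independent filtering, 0 against the 1.5-fold null, and 5 with total-count size factors or without a fold limit. They were 1 to 4 when single libraries were left out, with 1 without DMM 3 and 4 without naive 4.

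Log2 fold changes over the fits without 1 library ranged from -1.11 to 2.92 (Acta1), -0.28 to 1.31 (Ckm), -1.19 to 2.93 (Myh1), -1.85 to 2.76 (Myh4), -0.28 to 1.82 (Tnnt3), -0.65 to 3.08 (Tnnc2) and -0.39 to 1.91 (Ttn), the lowest of each being the fit without DMM 1. Myh1 also turned, to -0.09, without both libraries. Other fits gave smaller changes without turning the sign: limma-voom gave 0.43 (Ckm), 0.34 (Myh1), 0.47 (Myh4), 0.82 (Tnnt3) and 0.67 (Ttn), and the replicate block gave 0.35 (Acta1), 0.48 (Ckm), 0.11 (Myh1), 0.59 (Myh4), 0.58 (Tnnt3) and 0.58 (Ttn). Over the fits without 1 library, Tnni2 (0.75 to 1.10), Myh2 (0.96 to 3.20) and Mylpf (-1.10 to -0.53) kept their sign. The ratio of the summed members was 1.70 to 2.49 under other scalings, lengths or without Ttn, and 0.744 to 3.59 without single libraries, with 0.744 without DMM 1 and 3.59 without naive 3. Acta1, Myh2 and Tnnc2 gave no value under edgeR, limma-voom or the count filter. At 13 to 77 counts of the 3 myosins in 6 libraries, differences in their mix were not detectable except where intervals part.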
